A study of Saccharomyces cerevisiae with 6 samples.

Results

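The 6 genes described here, ICL1, MLS1, MDH2, PCK1, FBP1 and JEN1, let Saccharomyces cerevisiae build sugar phosphates from carbon compounds smaller than sugar. They were listed by name for their roles in the glyoxylate cycle, gluconeogenesis and lactate uptake, with earlier results of these data known. Each had 1 probe set in the deposited table, so that 6 of 6 were found among 5449 S. cerevisiae genes on 5498 probe sets. Expression was measured on 6 Affymetrix Yeast Genome 2.0 arrays, 2 for each of 3 strains, all CEN.PK113-7D, a laboratory reference strain, grown in chemostats on minimal medium whose sole carbon source was glucose (10 g/L), at the critical dilution rate, above which yeast starts to make ethanol. Control cells held plasmid pYX212 without an insert. The NOX strain held pYX212-NOX, with a gene known as a water-forming NADH oxidase that acts in the cytosol, and the AOX strain held pYX212-AOX, with an alternative oxidase that acts in mitochondria. The series title names NADH oxidation and overflow metabolism as the subject. The plasmid is known to drive its insert from a constitutive yeast promoter. The transgenes themselves were not measured here, and the labels do not say how many transformants were grown or whether a strain's arrays stem from independent cultures. The p-values therefore reflect only how far these arrays scatter, and that scatter may be technical. The dilution rate is not given as a number for any strain, and a difference in growth rate cannot be told apart from the transgene.

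In yeast, the glyoxylate cycle bypasses the steps of the citric acid cycle that release carbon dioxide, so that acetyl-CoA from ethanol, acetate or fatty acids yields malate and oxaloacetate. Gluconeogenesis then runs from oxaloacetate to hexose phosphate, through enzymes shared with glycolysis and through steps of its own. All 6 genes are known to be repressed by ample glucose. When glucose runs low, the kinase Snf1 relieves the repressor Mig1 and the activators Cat8 and Sip4 turn many of these genes on. After glucose returns, the enzymes Fbp1, Pck1, Icl1 and Mdh2 are known to be degraded through the GID ubiquitin ligase, which is a protein event that arrays do not read.

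The arrays were of similar brightness, with a median intensity of 511 to 543 over the S. cerevisiae probe sets. Named probe sets of no S. cerevisiae gene, taken to belong to a second organism on the array, gave the background. It was set at their 95th percentile (27.1 to 43.5), and all 6 genes were well above it on every array. NOX replicate 1 stood apart: its hybridisation controls averaged 10.54 on the log2(intensity + 16) scale, against 8.93 to 9.35 on the other 5 arrays. The difference between the 2 arrays of a strain had an SD over probe sets of 0.05 log2 in control, 0.20 in NOX and 0.14 in AOX. The spread pooled over strains is therefore wider than that of the controls and narrower than that of NOX. Intensities are given below as deposited. Changes are differences of quantile-normalized log2(intensity + 16), with limma's standard error (SE) and Benjamini-Hochberg adjusted p over all 5498 probe sets, and a change passed at an adjusted p below 0.05. The probe set of 1 gene is not compared in level with that of another.

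The 6 genes did not move as a block. For 6 of 6 the deposited intensities of the 3 strains did not overlap, as for 21.8% of all probe sets. In NOX, MDH2 and JEN1 rose, FBP1, ICL1 and PCK1 fell, and MLS1 did not pass. In AOX, PCK1, MLS1, FBP1, JEN1 and ICL1 fell, and MDH2 did not pass, so the set did not fall as a whole there. Directly between the oxidase strains, JEN1, PCK1, MLS1 and MDH2 were lower in AOX and ICL1 was higher. Thus 5 of 6 genes passed in NOX against control, where 3.71% of all probe sets passed (2.8% higher and 0.909% lower). In AOX against control 5 of 6 passed, where 3.58% of all did (2.55% higher and 1.04% lower). Between AOX and NOX 5 of 6 passed, where 8.38% of all did (4% higher and 4.38% lower). The median log2 change of the 6 genes was -0.29 in NOX, -0.55 in AOX and -0.60 between AOX and NOX, while the median over all probe sets was 0.00 in NOX, 0.00 in AOX and 0.01 between them. Both comparisons with control use the same control arrays. The genes were chosen with earlier results of these data known, so their counts beside these shares are no test of the set.

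**Figure D1:**
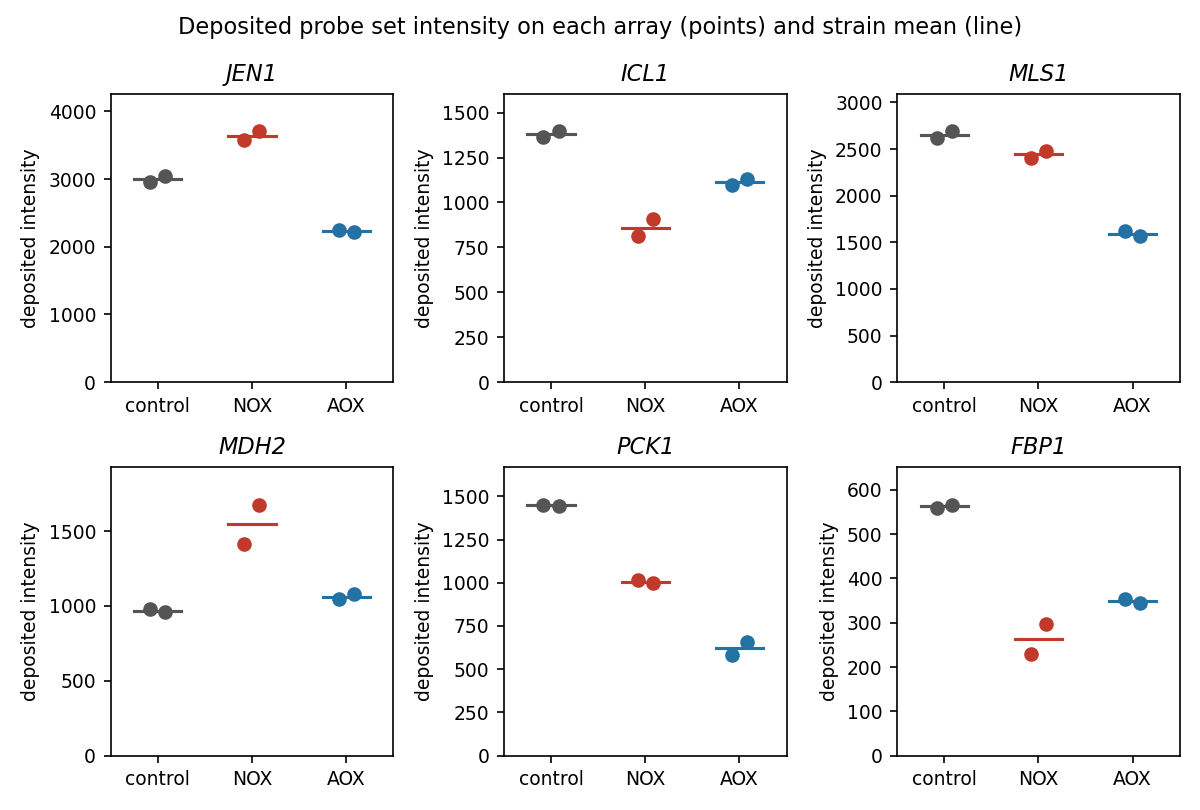
Deposited intensity (y axis, linear, from 0) of each gene on the 2 arrays of each strain (points) with the strain mean (line). No strain overlaps another for any of the 6 genes. MDH2 is highest in NOX and close to control in AOX, and JEN1 is highest in NOX and lowest in AOX.

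JEN1 (YKL217W) encodes the plasma membrane transporter that takes up lactate and pyruvate with protons. Its intensity was 2952 and 3042 on the control arrays, 3576 and 3709 in NOX and 2243 and 2223 in AOX. The strains were ordered NOX, control, AOX with no overlap. JEN1 rose by 0.34 in NOX (SE 0.05, 1.26-fold; limma adjusted p = 0.0210) and fell by 0.42 in AOX (SE 0.05, 1.34-fold; limma adjusted p = 0.00741). AOX stood below NOX, with a log2 difference of -0.76 (SE 0.05, 1.69-fold; limma adjusted p = 0.000610), and this call held in all 18 alternatives. The rise in NOX did not pass without control replicate 1 (adjusted p = 0.315), control replicate 2 (0.271) or either AOX array (0.0644), nor on the deposited values without quantile normalization, where it was 0.28 (0.0510). The fall in AOX did not pass without control replicate 1 (adjusted p = 0.124) or 2 (0.164), or without AOX replicate 1 (0.0777) or 2 (0.0628).

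ICL1 (YER065C) encodes isocitrate lyase, which splits isocitrate into succinate and glyoxylate and opens the glyoxylate cycle. Its intensity was 1364 and 1397 in control, 813 and 907 in NOX and 1096 and 1129 in AOX. NOX was lowest and AOX lay between NOX and control, without overlap. ICL1 fell by 0.65 in NOX (SE 0.05, 1.57-fold; limma adjusted p = 0.00376), ranking 11 of 5498 probe sets by size of fall. It fell by 0.29 in AOX (SE 0.05, 1.23-fold; limma adjusted p = 0.0381), and it was higher in AOX than in NOX by 0.36 (SE 0.05, 1.28-fold; limma adjusted p = 0.0117). Leaving out control replicate 1 or 2 gave adjusted p-values of 0.0751 and 0.0910 for NOX, 0.377 and 0.520 for AOX, and 0.0678 in both cases for AOX against NOX. Without AOX replicates 1 and 2 it was 0.206 and 0.205 for AOX, and 0.0772 and 0.0942 for AOX against NOX. The change in AOX also did not pass on the deposited values (adjusted p = 0.0887) or with median scaling on other-organism probe sets (0.0902).

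MLS1 (YNL117W) encodes malate synthase, which joins the glyoxylate made by isocitrate lyase to acetyl-CoA. Its intensity was 2618 and 2693 in control, 2404 and 2485 in NOX and 1620 and 1564 in AOX. Here AOX was lowest, and the NOX arrays lay slightly below control. MLS1 fell by 0.73 in AOX (SE 0.05, 1.65-fold; limma adjusted p = 0.00121) and stood lower in AOX than in NOX, at a log2 difference of -0.65 (SE 0.05, 1.57-fold; limma adjusted p = 0.000989). Both calls held in all 18 alternatives. In NOX the difference from control was -0.08 (95% interval -0.20 to 0.04; limma adjusted p = 0.380), an interval that does not reach the fall of ICL1 in the same strain.

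MDH2 (YOL126C) encodes the cytosolic malate dehydrogenase, which oxidises malate to oxaloacetate with NAD and links the glyoxylate cycle to gluconeogenesis. Its intensity was 977 and 962 in control, 1413 and 1677 in NOX and 1044 and 1079 in AOX. The NOX arrays were well above the rest and differed from each other more than those of the other strains. MDH2 rose by 0.69 in NOX (SE 0.07, 1.61-fold; limma adjusted p = 0.00907). In AOX the difference from control was 0.13 (95% interval -0.05 to 0.31; limma adjusted p = 0.529), so that MDH2 was the 1 gene of the 6 whose value in AOX was not below control. Between AOX and NOX the log2 difference was -0.56 (lower in AOX, SE 0.07, 1.47-fold; limma adjusted p = 0.00874). Leaving out control replicate 1 or 2 gave adjusted p-values of 0.114 and 0.126 in NOX. Without AOX replicates 1 and 2 it was 0.0834 and 0.0654 for AOX against NOX.

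PCK1 (YKR097W) encodes phosphoenolpyruvate carboxykinase, which turns oxaloacetate into phosphoenolpyruvate and starts gluconeogenesis. Its intensity was 1452 and 1443 in control, 1015 and 998 in NOX and 584 and 660 in AOX. The order was control, NOX, AOX with no overlap. PCK1 fell by 0.50 in NOX (SE 0.07, 1.41-fold; limma adjusted p = 0.0245) and fell by 1.20 in AOX (SE 0.07, 2.29-fold; limma adjusted p = 0.00104), where it ranked 5 of 5498 by size of fall. Set against NOX, AOX was lower, with a log2 difference of -0.70 (SE 0.07, 1.63-fold; limma adjusted p = 0.00398). The changes in AOX and between AOX and NOX passed in all 18 alternatives. The fall in NOX did not pass without control replicate 1 (adjusted p = 0.249) or 2 (0.246).

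FBP1 (YLR377C) encodes fructose-1,6-bisphosphatase, which removes a phosphate late in gluconeogenesis, opposite to phosphofructokinase in glycolysis. Its intensity was 560 and 567 in control, 230 and 298 in NOX and 354 and 345 in AOX. NOX was lowest, with the widest gap between replicates of the 3 strains. FBP1 fell by 1.05 in NOX (SE 0.09, 2.08-fold; limma adjusted p = 0.00531), ranking 2 of 5498 by size of fall, and by 0.67 in AOX (SE 0.09, 1.59-fold; limma adjusted p = 0.0160). The difference between AOX and NOX was 0.38 (95% interval 0.16 to 0.61; limma adjusted p = 0.0638) and did not pass. It passed without NOX replicate 1, where it was 0.25 (adjusted p = 0.0327), and without NOX replicate 2, where it was 0.52 (0.00414). The fall in NOX was 0.92 without NOX replicate 1 and did not pass without control replicate 1 (adjusted p = 0.0715) or 2 (0.0737). The fall in AOX did not pass without control replicate 1 (0.134) or 2 (0.150), or without AOX replicate 1 (0.122) or 2 (0.161).

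**Figure D2:**
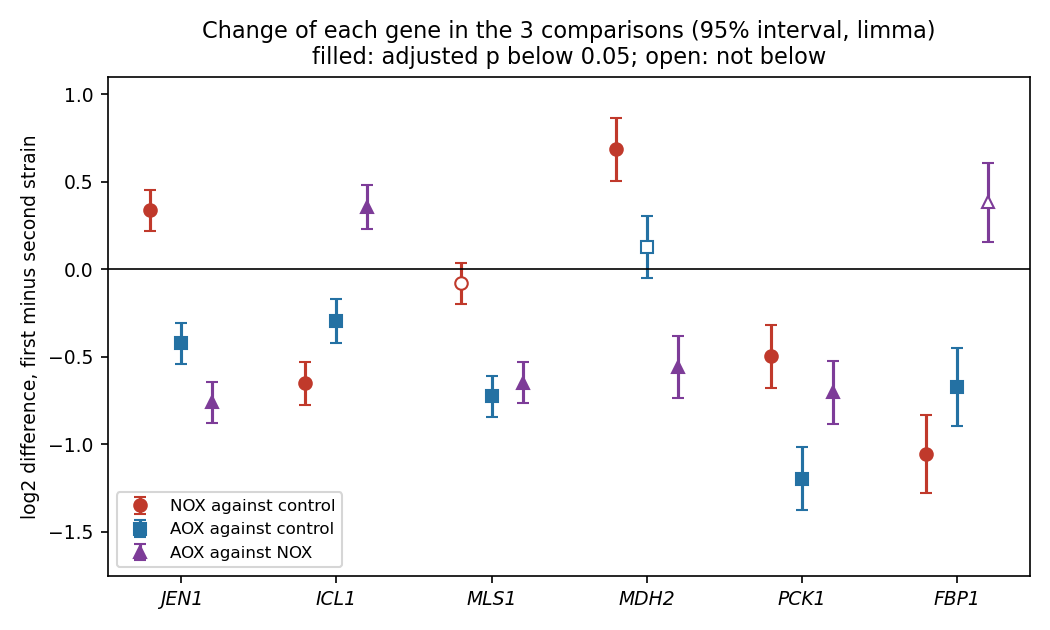
Log2 difference (y axis) of each gene in NOX against control (circles), AOX against control (squares) and AOX against NOX (triangles), with 95% intervals from limma, n = 2 arrays per strain. Filled symbols passed at an adjusted p below 0.05. JEN1 lies above 0 in NOX at 0.34 and below 0 in AOX at -0.42, and ICL1 and FBP1 have the lower value in NOX (the difference between AOX and NOX did not pass for FBP1) while MLS1 and PCK1 have it in AOX.

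Within each branch of the pathway, the genes differed in which oxidase strain had the lower value, although for FBP1 the difference between AOX and NOX did not pass. A ratio of 2 genes on the same array does not depend on the scaling of that array, and such ratios are given without a test. The pairs were chosen after the values were seen. The ratio of ICL1 to MLS1 intensity, the consecutive enzymes particular to the glyoxylate cycle, was 0.521 and 0.519 in control, 0.338 and 0.365 in NOX and 0.676 and 0.722 in AOX. It was below control on both NOX arrays and above control on both AOX arrays. The ratio of FBP1 to PCK1, the steps particular to gluconeogenesis, was 0.386 and 0.393 in control, 0.227 and 0.299 in NOX and 0.607 and 0.522 in AOX. It followed the same order of strains. The ratio of FBP1 to MDH2 was 0.573 and 0.589 in control, 0.163 and 0.178 in NOX and 0.339 and 0.320 in AOX, lower than control in both oxidase strains and lowest in NOX. The ratio of PCK1 to JEN1 was 0.492 and 0.474 in control, 0.284 and 0.269 in NOX and 0.260 and 0.297 in AOX. For this pair the NOX and AOX arrays overlapped, although JEN1 itself differed between these strains.

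**Figure D3:**
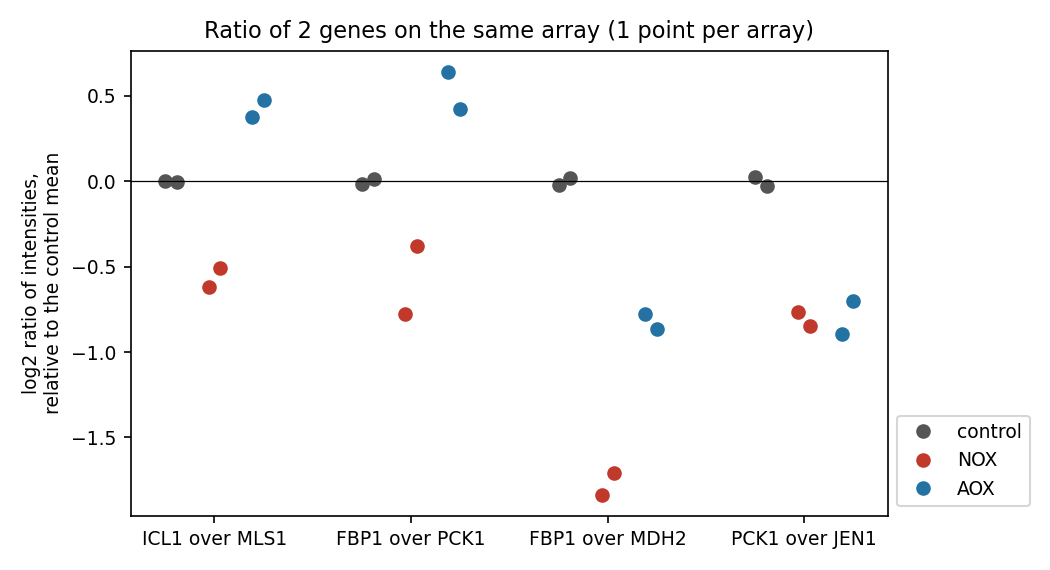
Log2 ratio of the intensities of 2 genes on the same array, relative to the control mean (y axis), 1 point per array. ICL1 over MLS1 and FBP1 over PCK1 lie below control in NOX and above it in AOX. FBP1 over MDH2 is lowest in NOX, and PCK1 over JEN1 lies below control in NOX and AOX, whose arrays overlap.

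Over the 6 arrays, ICL1 and FBP1 had the most similar profiles among the 6 genes (Pearson r = 0.97), followed by MLS1 and PCK1 (0.94) and by MLS1 and JEN1 (0.85). ICL1 and MDH2 ran opposite (-0.93), and ICL1 and MLS1 were nearly unrelated (0.04). These values describe 3 strains with 2 arrays each and share the arrays' scaling. Among 312 other probe sets whose strain means spanned at least 0.5 log2, the 3 most like ICL1 were TAT1, an amino acid permease gene (0.99), FBP1 and MEP3, an ammonium permease gene (0.96). The same permease genes, MEP3 (0.98) and TAT1 (0.94), were together with ICL1 the 3 most like FBP1. The 3 most like MLS1 were DET1 (1.00), FAA2, a fatty acid activation gene (1.00), and PRM2 (0.99). PCK1 was most like DAK2, a dihydroxyacetone kinase gene (0.99), URA3, the marker of the plasmid (0.97), and GRX4, a glutaredoxin gene (0.97). URA3 differed from control by -0.29 in NOX (limma adjusted p = 0.0517) and by -0.68 in AOX (limma adjusted p = 0.00246). Whether the amount of plasmid differed between the strains was not tested. JEN1 was most like PPE1 (1.00), TIP1, a cell wall mannoprotein gene (1.00), and PDR12, a weak acid exporter gene (0.99). MDH2 was most like PRR2 (0.99), TMA10 (0.98) and IZH4 (0.98).

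The isozymes and partner enzymes of the pathway were described from a list of 15 genes, of which 14 were measured. Counts at an unadjusted limma p below 0.05 are given beside those past the adjusted test, and stand against the shares of all 5498 probe sets that such a p calls. Those shares were 12.3% higher and 9.93% lower in NOX, 8.37% higher and 5.33% lower in AOX, and 11.5% higher and 11.2% lower in AOX against NOX. In NOX 3 rose and 0 fell, with 5 higher and 0 lower at an unadjusted limma p below 0.05 and a median log2 change of 0.04. Those that rose were ICL2 (0.92, limma adjusted p = 0.00428), the 2-methylisocitrate lyase of mitochondria, CIT3 (0.88), a mitochondrial citrate and methylcitrate synthase, and ACS1 (0.76), the acetyl-CoA synthetase used on ethanol and acetate. In AOX 0 rose and 1 fell, ICL2 (-0.80, limma adjusted p = 0.00350), with 0 higher and 4 lower at an unadjusted p below 0.05 and a median of -0.12. The intensity of ICL2 was 1465 and 1492 in control, 2771 and 2662 in NOX and 813 and 866 in AOX. ICL2 was thus higher than control in the strain where ICL1 was lowest. DAL7, the malate synthase paralog of MLS1 in allantoin use, differed by -0.06 in NOX and -0.15 in AOX, neither past the test. MDH1, the mitochondrial malate dehydrogenase, differed by -0.02 and 0.04, and MDH3, the peroxisomal one, by 0.08 and -0.19, none past the test. Between AOX and NOX 6 of the 14 were lower in AOX and 0 higher, ICL2 (-1.72), ACS1 (-1.14), CIT3 (-1.02), AGX1 (-0.32), CIT2 (-0.29) and MDH3 (-0.27), with the same counts at an unadjusted p below 0.05. Probe sequences were not used here, so binding of paralogs to each other's probes was not tested. Without control replicate 1 or 2, 0 of the 14 passed in NOX. Between AOX and NOX 3 were lower in AOX without control replicate 1 or 2, and also without AOX replicate 1 or 2. In AOX against control ICL2 did not pass without control replicate 2. With only the AOX and control arrays fitted, 2 were lower in AOX, in a fit that also called more of all probe sets.

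Of 11 other genes described as Cat8 or Sip4 targets, 4 rose in NOX and 0 fell (6 and 0 at an unadjusted limma p below 0.05), with a median of 0.22. These were ADH2, which oxidises ethanol to acetaldehyde (1.98), ATO3, of ammonium export (1.17), ADY2, an acetate transporter gene (0.85), and ACS1, also counted among the partner enzymes. In AOX 5 of the 11 fell and 0 rose (8 and 0 at an unadjusted p below 0.05), with a median of -0.48: ATO3 (-1.74), ADH2 (-1.31), SFC1, the mitochondrial succinate and fumarate carrier gene (-0.85), IDP2, the cytosolic NADP isocitrate dehydrogenase gene (-0.53), and CRC1, the mitochondrial carnitine carrier gene (-0.49). Between AOX and NOX 7 were lower in AOX and 0 higher (8 and 0 at an unadjusted p below 0.05), with a median of -0.69. SFC1, whose product carries succinate into mitochondria in exchange for fumarate, had intensities of 2700 and 2587 in control, 2640 and 2609 in NOX and 1430 and 1473 in AOX. Both NOX arrays lay between the control arrays, and both AOX arrays lay below them. Without control replicate 1 or 2, 1 of the 11 passed in NOX and 3 in AOX, and without AOX replicate 2, 3 passed in AOX. Of 11 genes of acetate, carnitine and organic acid transport, some of which are also in the list above, 1 rose in NOX, ADY2, and 2 fell in AOX, SFC1 and CRC1. At an unadjusted limma p below 0.05, 4 were higher and 1 lower in NOX, and 0 higher and 5 lower in AOX. Between AOX and NOX 4 of the 11 were lower in AOX and 0 higher (4 and 1 at an unadjusted p below 0.05). The genes called in NOX and in AOX are all in the list above as well. Without control replicate 1 or 2, 0 of these passed in NOX and 1 in AOX. In AOX fewer passed without AOX replicate 1 or 2. With only the AOX and control arrays fitted, 4 were lower and 1 higher in AOX, in a fit that also called more of all probe sets. In NOX 2 were higher without NOX replicate 1, and 2 higher and 3 lower without NOX replicate 2. That last fit called 26.4% of all probe sets in NOX, against 3.71% with all 6 arrays, and 26.7% between AOX and NOX, against 8.38%.

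**Figure D4:**
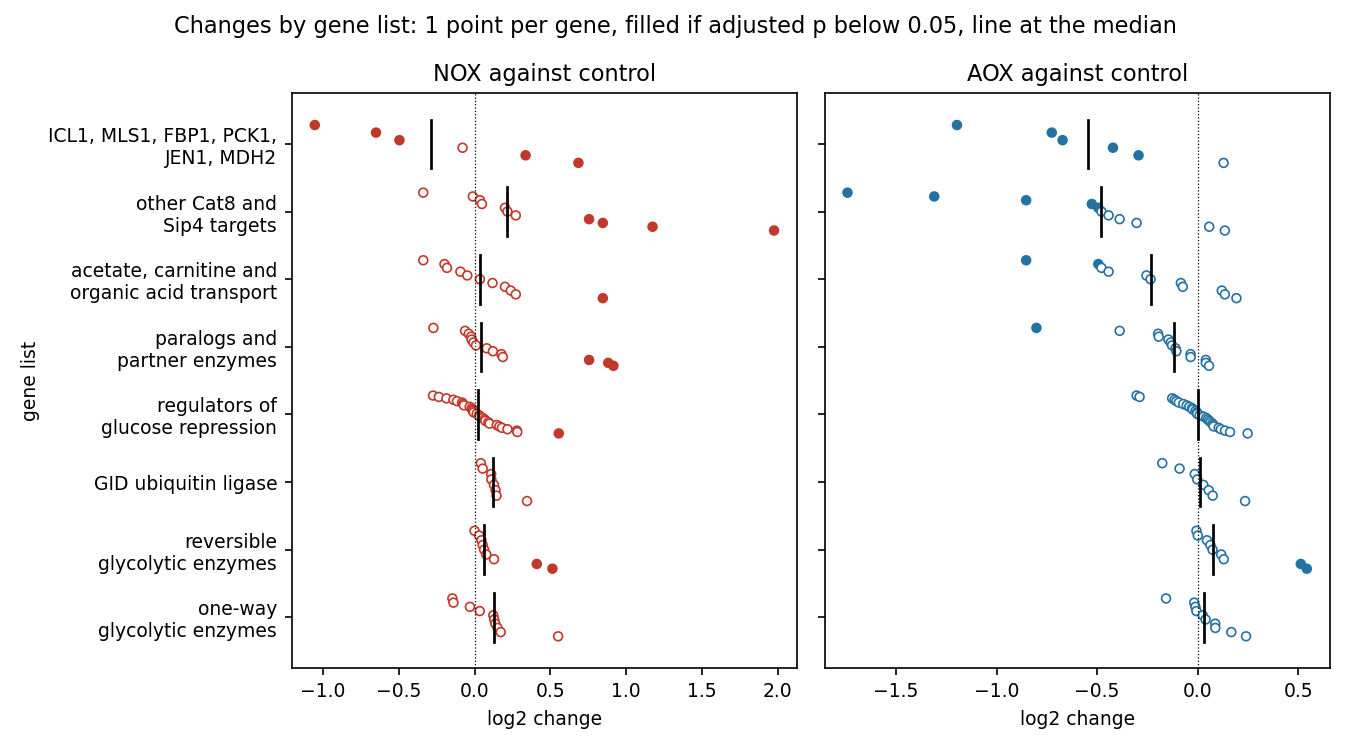
Log2 change (x axis) of every measured gene in each list (y axis), in NOX against control (left) and AOX against control (right), filled where the adjusted p is below 0.05, with a line at the list median. The 6 genes lie on both sides of 0 in NOX, from -1.05 to 0.69, and 5 of 6 lie below 0 in AOX.

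Of 28 regulators of glucose repression, 1 rose in NOX and 0 fell (5 and 4 at an unadjusted limma p below 0.05). Over all probe sets, 2.8% were called higher and 0.909% lower in NOX. The regulator that rose was MIG2, a repressor gene (0.56, limma adjusted p = 0.00915), and it did not pass without control replicate 1 or 2. Without NOX replicate 2, 3 were higher and 3 lower in NOX, in the fit that called 26.4% of all probe sets. In AOX 0 of 28 passed (1 higher and 2 lower at an unadjusted p below 0.05). However, 1 regulator, ADR1, was called lower in AOX in 8 of 18 alternatives. Among these were median scaling on S. cerevisiae probe sets, a pseudocount of 64 and a fit of only the AOX and control arrays. The fit of only those arrays also called more of all probe sets. CAT8 differed by 0.18 (SE 0.11) in NOX and -0.07 in AOX, SIP4 by 0.22 (SE 0.13) and 0.06, and MIG1 by 0.28 and 0.25, none past the test. SNF1 differed by -0.07 and 0.00, HXK2, the hexokinase with a role in repression, by -0.14 and -0.01, and HAP4, an activator of respiratory genes, by -0.01 and -0.11, none past the test. ADR1, an activator of ethanol and fatty acid use, differed by 0.01 in NOX and by -0.29 in AOX (limma adjusted p = 0.0535), and between AOX and NOX by -0.30 (0.0272). That last comparison also called MIG2 (-0.42) and NRG1, a repressor gene (-0.28), as lower in AOX, 3 of 28 in all and 0 higher, and 0 of 28 without control replicate 1 or 2 or AOX replicate 1 or 2. Of all probe sets, 4.38% were lower in AOX in that comparison. Messenger RNA does not read the phosphorylation by which Snf1, Mig1 and Cat8 are known to be controlled.

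For the GID ubiquitin ligase, 8 of 10 listed genes were measured and 0 passed in NOX, AOX or between them by limma. At an unadjusted p below 0.05, 2 were higher in NOX, 1 was higher in AOX and 3 were lower in AOX than in NOX. The gene closest to the threshold, named after its values were seen, was VID24, which encodes a substrate receptor of the ligase. It differed by 0.35 in NOX (limma adjusted p = 0.0502) and was called higher there in 8 of 18 alternatives, the deposited values among them. Without NOX replicate 2, the fit that called 26.4% and 26.7% of all probe sets, 3 of the 8 were higher in NOX and 3 were lower in AOX than in NOX. With only the AOX and control arrays fitted, 1 was higher in AOX, in a fit that also called more of all probe sets. Of the glycolytic enzymes that also serve gluconeogenesis in reverse, 9 were measured and 2 rose in both oxidase strains, TDH1, a glyceraldehyde phosphate dehydrogenase gene (0.51 in NOX and 0.51 in AOX), and ENO1, an enolase gene (0.41 and 0.54), while 0 fell (3 higher and 0 lower at an unadjusted limma p below 0.05 in each strain). Without control replicate 1 or 2, 0 of the 9 passed in NOX or in AOX, and without AOX replicate 1 or 2, 1 passed in AOX. Of 10 enzymes of the one-way steps of glycolysis and their regulators, 0 passed in NOX (3 higher and 2 lower at an unadjusted limma p below 0.05) and 0 in AOX (1 and 0). Without NOX replicate 2, 2 of the 10 were higher and 2 lower in NOX, again in the fit that called 26.4% of all probe sets.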

How the data were processed

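The authors deposited 1 intensity per probe set and array on a linear scale, judged from the values' range. How the probes were summarised and scaled is not stated in the sources used here. Probe sets were named through GEO's platform annotation and updated by Entrez identifier to the R64 gene table. This gave 5498 S. cerevisiae probe sets with 1 gene, and 1746 named probe sets of no S. cerevisiae gene served as background. Coordinates are not printed, since the annotation names no build. Intensities were taken as log2(value + 16), which understates changes of dim genes. The array medians over all probe sets differed by 0.20 log2, above the limit of 0.1, so quantile normalization over all probe sets followed (over the S. cerevisiae probe sets alone they differed by 0.08). The comparisons used limma 3.58.1 (R 4.3.3), fitting 1 mean per strain over 6 arrays, 3 residual and 2.77 prior degrees of freedom, and Benjamini-Hochberg adjustment over 5498 probe sets. The fit was tested on simulated data. The members and gene lists were chosen with earlier results of these data known. Genes were named by rule: the 6 members, listed genes that passed, fixed regulators and isozymes, and the 3 most similar probe sets per member. A few listed genes, among them TDH2, GID10 and GID11, are not analysed here. The number of arrays limits the precision. The alternatives tried were other scalings, pseudocounts, filters, variance models and thresholds, a replicate block, and each array left out in turn. Where an array was left out, the lone array left was taken to vary as those of the other strains do.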

Additional observations from a re-analysis of the deposited data

Results flagged for a closer look

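JEN1, the lactate and pyruvate transporter gene, changed in opposite directions in the oxidase strains: it rose by 0.34 in NOX and fell by 0.42 in AOX on the log2 scale, with both arrays of each strain on that side of both controls. The test of the difference itself gave -0.76 for the change in AOX minus the change in NOX (limma adjusted p = 0.000610, between 0.000177 and 0.0131 over the 18 alternatives). A call in this difference was a condition for the flag, and it compares AOX with NOX, not either strain with control. The rise in NOX and the fall in AOX each did not pass in several alternatives, as given above for JEN1. No group had enough arrays to look for a single array far from the others.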

How the results depend on the processing

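Of 324 recomputed changes (18 changes under 18 alternatives), 0 turned direction, 278 stayed on their side of the threshold, 43 no longer passed and 3 newly passed. Of the 43 losses, most came from leaving out a control or AOX array, and none from leaving out a NOX array. Over the 6 such fits the probe sets called ranged from 14 to 1453 in NOX, from 52 to 364 in AOX and from 158 to 1467 between AOX and NOX, with the highest counts for NOX and for AOX against NOX without NOX replicate 2. The 6 genes counted as higher ranged from 0 to 2 in NOX and from 0 to 2 in AOX against NOX, and those lower from 0 to 3 in NOX, from 2 to 5 in AOX and from 3 to 4 in AOX against NOX. At a threshold of 0.01 the probe sets called were 76, 115 and 195 in these 3 comparisons. Of the 6 genes, 1 was then higher and 2 lower in NOX, 3 were lower in AOX and 0 higher in AOX against NOX. With only the arrays compared the probe sets called were 111, 364 and 202, with 1 gene higher in NOX and 0 higher in AOX against NOX. On the deposited values 1 gene was higher in NOX. Arrays with the same replicate number did not vary together: replicate differences correlated by 0.12 (control and NOX), -0.21 (control and AOX) and -0.60 (NOX and AOX). At -0.60, NOX replicate 1 varied with AOX replicate 2 and NOX replicate 2 with AOX replicate 1. The arrays of these 2 strains may therefore not vary independently, a limit on AOX against NOX, and the source was not tested. With the replicate number as a block 79, 124 and 237 probe sets were called and 1 gene was higher in NOX. JEN1 and PCK1 in NOX (adjusted p = 0.0863 and 0.0843) and ICL1 in AOX (0.118) were then not called. With the AOX numbers swapped in the block, chosen after seeing the data, as was quantile normalization over S. cerevisiae probe sets alone, 365 probe sets were called in NOX and 2 genes were higher in AOX against NOX. The cause of the changes with scaling, threshold, block and array left out was not tested.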
